A study of Mus musculus with 5 samples.

Results

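The ErbB receptors and their EGF-like ligands were followed in RNA bound to anti-myc beads from mouse NIH/3T3 fibroblasts, an established cell line. The family was taken as 9 genes, the receptors Egfr, Erbb2, Erbb3 and Erbb4, the ligands Ereg, Areg, Hbegf and Nrg1, and the receptor inhibitor Errfi1. Followed for them were all probe sets, the groups of short probes that measure 1 transcript on the array, that the array annotation assigned to one of these symbols alone. The genes were chosen on earlier results of these same arrays, in which Erbb3 was already known to be high, so the values below are a description. Of the 9 genes 8 had a probe set, 17 of the 45101 probe sets of the array, on which 18194 genes were named. Areg, the gene of amphiregulin, had none annotated to it and was not analysed here. It is the neighbour of Ereg in the mouse genome, with 0 protein-coding genes between them in the RefSeq gene table.

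ErbB receptors are tyrosine kinases of the cell surface that act in pairs. Ligands with an EGF-like fold are made as membrane-bound precursors, cut free by metalloproteases, and bring the receptors together, after which adaptor proteins pass the signal to the RAS to ERK and PI3K to AKT cascades. Fibroblasts are a classical cell type for the study of EGF receptor signalling, whereas Erbb3 is best known from epithelial cells and from the Schwann cell lineage.

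The question of the study was which mRNAs are held by AUF1 p42, an isoform of the AU-rich element binding protein encoded by Hnrnpd. The cells of all RNP-IPs, uninduced ones included, carried 2 retroviral vectors, pBSwitch and the vector pSLHGC-MYC-AUF1 p42, and make myc-tagged AUF1 p42 after addition of mifepristone. According to the methods infected cells were selected with blasticidin while 1 nM mifepristone was present, and no clone is mentioned. Cells of the uninduced RNP-IPs had thus also met the inducer, at selection. Ribonucleoprotein immunoprecipitates (RNP-IPs) were prepared with anti-c-myc agarose beads, 2 of them after 1 nM mifepristone for 24 h and 2 without induction, and 1 array held total RNA. The paper calls the 2 RNP-IPs of induced cells independent, but the sources used here do not state that the RNP-IPs of a group came from separate cultures. Nor do they state if the cells of the total RNA carried the vectors or had been induced. The p-values then measure only the spread between these arrays, which may be technical.

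Hnrnpd was lower in the RNP-IPs labelled induced than in all 3 controls. On probe set 1425142_a_at RNP-IPs 1 and 2 labelled induced had log2 signals of 6.72 and 7.39, RNP-IPs 1 and 2 labelled uninduced 11.35 and 11.85, and the total RNA array 10.60. The log2 difference from the 3 controls was -4.21 there, -4.32 on 1457568_at and -1.97 on 1458273_at, which was mostly near background. An induced transgene would raise Hnrnpd RNA in the cells, but the RNP-IPs held bead-bound RNA, which is no measure of expression. Whether the probes match the transgene was not stated either. The RNP-IPs are therefore called by their labels throughout, and every direction below rests on those labels. Markers of fibroblasts were present, with 8 of 10 at log2 5 or above in all arrays and Lum below it in all. Of the markers of epithelial cells 6 of 7 were below log2 5 in every array, the exception being Epcam with signals of 6.66 to 6.99. The arrays were alike in their medians, 3.77 to 3.83, and held 13168 to 13649 probe sets at log2 5 or above. A signal under log2 5 is called near background here, a line that is no detection call. A probe set is called where its fold is at least 3 and its adjusted p from limma is under 0.5. The study used these thresholds for enrichment against the 3 controls. Here they are also applied to lower signals and to the other comparisons. At an adjusted p this lenient a large part of the calls may be false.

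Erbb3 was the member with the highest enrichment in the RNP-IPs labelled induced. Erbb3 binds neuregulins and has little kinase activity of its own, so that it signals through its partner receptors. On probe set 1434606_at RNP-IPs 1 and 2 labelled induced had log2 signals of 6.97 and 7.22, RNP-IPs 1 and 2 labelled uninduced 3.43 and 3.70, and the total RNA array 3.96. Both arrays labelled induced lay far above the 3 controls, and all 3 controls were near background.

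The difference of Erbb3 on the log2 scale was 3.40 (SE 0.19, 95% confidence interval 2.86 to 3.94) between the arrays labelled induced and the 3 controls, with an adjusted p = 0.0702 from limma (0.0312 to 0.453 over the alternatives tried). This is 10.6-fold by the measured signals. No control array reached log2 5, and with the controls set at log2 5 the arrays labelled induced were at least 4.27-fold higher. Against the RNP-IPs labelled uninduced alone the log2 difference was 3.53 (SE 0.16, adjusted p = 0.118 from limma). The RNP-IPs labelled uninduced were 0.40 below total RNA on the log2 scale (difference -0.40, SE 0.19), with both sides near background. The order of Erbb3 was thus labelled induced, then total RNA and labelled uninduced, and the last neighbours did not differ beyond their spread in this fit.

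The other probe set of Erbb3, 1452482_at, did not share this pattern. It read 3.84 and 3.98 with the induced label, 3.84 and 3.89 with the uninduced label, and 3.94 for total RNA. All of them were near background and within 0.146 of each other on the log2 scale. The 2 probe sets therefore disagree on Erbb3, and the sources used here do not give their positions on the transcript.

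Beside the signal of Erbb3, markers of cells that express it were read. Of 7 Schwann cell and oligodendrocyte markers 5 were measured and 4 were under log2 5 in every array, among them Mbp and Mag of myelin, while Sox10 ranged from 4.67 to 5.43. The mean log2 signal of the 5 was 4.26 and 4.17 with the induced label, 4.35 and 4.05 with the uninduced label, and 3.94 for total RNA, so the groups overlapped among the RNP-IPs. None of the markers of epithelial cells, Schwann cells, neurons, blood or endothelium was called in the comparison with the 3 controls. Of the fibroblast markers 1 was called, Pdgfrb, which was lower with a log2 difference of -1.59. The RNP-IPs held bead-bound RNA of an established cell line. A marker signal in them therefore measures neither the number of cells of a type nor the RNA per cell.

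**Figure D1:**
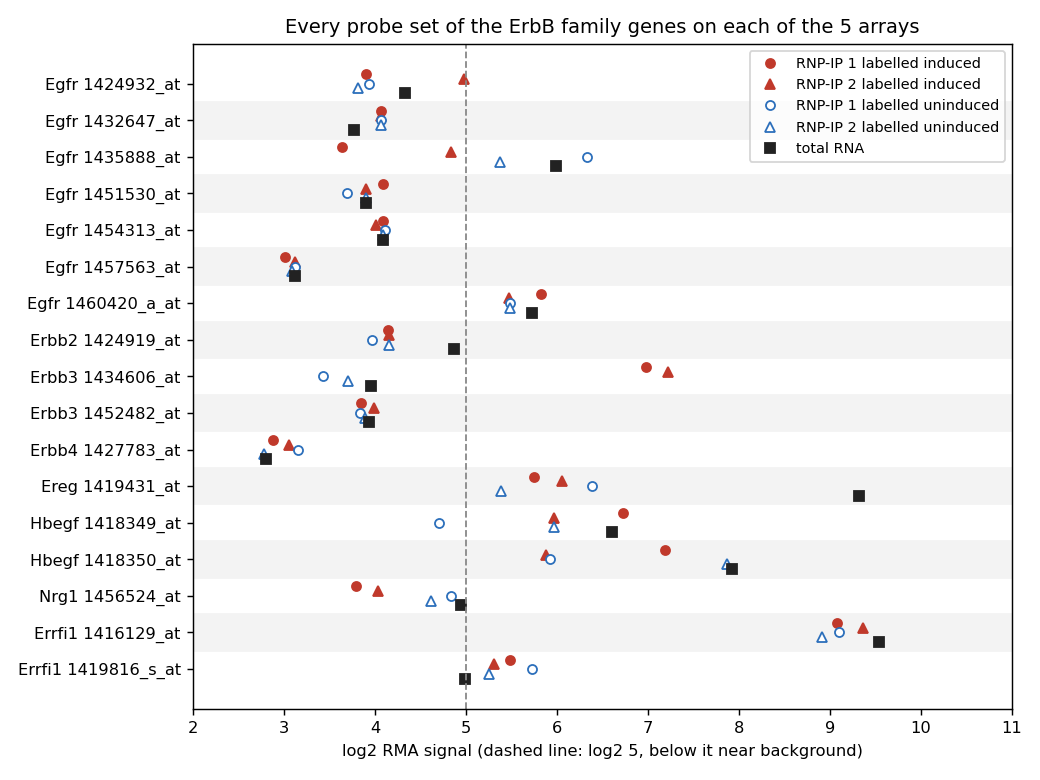
Signals of the 17 probe sets of the ErbB family genes (vertical axis) in each of the 5 arrays on the log2 RMA scale (horizontal axis), with filled red symbols for the RNP-IPs labelled induced, open blue symbols for those labelled uninduced and black squares for total RNA. For Erbb3 1434606_at the arrays labelled induced, 6.97 and 7.22, stand apart from the 3 controls left of the dashed line at log2 5, and for Ereg the total RNA array, 9.31, stands apart from the 4 RNP-IPs.

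Egfr, the receptor of EGF itself and of several other ligands, was measured by 7 probe sets, of which 2 reached log2 5 in any array. On probe set 1435888_at RNP-IPs 1 and 2 labelled induced had log2 signals of 3.64 and 4.83, RNP-IPs 1 and 2 labelled uninduced 6.32 and 5.38, and the total RNA array 5.99. Both arrays labelled induced lay below all 3 controls and were near background, and they differed from each other by more than the lower control differed from the higher of them.

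The log2 difference of this Egfr probe set was -1.66 (SE 0.50, 95% confidence interval -3.05 to -0.27, adjusted p = 0.374 from limma), 3.17-fold lower by the measured signals and at least 1.86-fold lower when the arrays labelled induced are set at log2 5. Against the RNP-IPs labelled uninduced alone it was -1.62 (SE 0.64, adjusted p = 0.549 from limma), which is no call. After median centring, after cyclic loess and with a filter at log2 5 it was called there too. The RNP-IPs labelled uninduced and total RNA differed by -0.14 (SE 0.78). The call against the 3 controls was lost without RNP-IP 1 labelled induced (log2 difference -1.07), without RNP-IP 1 labelled uninduced (-1.45), without RNP-IP 2 labelled uninduced (-1.92), and with the 4 RNP-IPs alone (-1.62).

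The single Egfr probe set with all 5 arrays above log2 5 was flat. For 1460420_a_at the signals were 5.82 and 5.47 with the induced label, 5.48 and 5.49 with the uninduced label, and 5.72 for total RNA. The groups overlapped, and the log2 difference from the 3 controls was 0.08 (95% confidence interval -0.33 to 0.50). This probe set and 1435888_at hence gave different readings of the same gene. The remaining 5 probe sets of Egfr were near background in every array, between 3.01 and 4.97. The widest of these, 1424932_at, had 4.97 in RNP-IP 2 labelled induced and 3.81 to 4.33 in the other 4 arrays.

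Erbb2, the receptor without a known ligand of its own and the preferred partner of the others, was near background throughout. Its probe set 1424919_at read 4.14 and 4.16 with the induced label, 3.96 and 4.16 with the uninduced label, and 4.86 for total RNA. Total RNA was thus the highest array, and the log2 difference of the RNP-IPs labelled uninduced from it was -0.81 (SE 0.11, adjusted p = 0.253 from limma), short of a 3-fold change. Erbb4, a neuregulin receptor with an active kinase, stayed between 2.78 and 3.15 on probe set 1427783_at, with overlapping groups and a log2 difference of 0.05 from the 3 controls.

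Among the ligands Ereg stood out, in total RNA and not in the RNP-IPs. Ereg encodes epiregulin, a ligand of Egfr and Erbb4. On probe set 1419431_at RNP-IPs 1 and 2 labelled induced had log2 signals of 5.75 and 6.05, RNP-IPs 1 and 2 labelled uninduced 6.39 and 5.38, and the total RNA array 9.31. The 4 RNP-IPs overlapped, and total RNA was far above all of them.

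The RNP-IPs labelled uninduced were 10.8-fold below total RNA for Ereg, with a log2 difference of -3.43 (SE 0.54, 95% confidence interval -5.19 to -1.67, adjusted p = 0.274 from limma). Total RNA exceeded the mean of the RNP-IPs labelled induced by 10.7-fold as well. The difference between the RNP-IPs labelled induced and labelled uninduced was 0.01 on the log2 scale (SE 0.44, 95% confidence interval -1.42 to 1.45). Against the 3 controls together the log2 difference of -1.13 was smaller than its SE of 1.33, since the controls ran from 5.38 to 9.31. Only 1 array held total RNA, so its own spread is unknown and was taken from the other groups.

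Hbegf, the heparin-binding ligand of Egfr and Erbb4, varied widely between arrays of the same label. On probe set 1418350_at RNP-IPs 1 and 2 labelled induced had log2 signals of 7.19 and 5.88, RNP-IPs 1 and 2 labelled uninduced 5.92 and 7.87, and the total RNA array 7.92. On 1418349_at they were 6.72 and 5.97, 4.70 and 5.97, and 6.60 in the same order. On both probe sets RNP-IP 1 was the higher of the arrays labelled induced and RNP-IP 2 the higher of those labelled uninduced, and the groups overlapped.

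The log2 difference of Hbegf from the 3 controls was -0.70 (SE 0.85) for 1418350_at and 0.59 (SE 0.67) for 1418349_at, so the probe sets differed in sign and neither was called. Compared with the RNP-IPs labelled uninduced alone the values were -0.36 (SE 0.98) and 1.01 (SE 0.62). The RNP-IPs labelled uninduced were below total RNA on both, by log2 differences of -1.03 (SE 1.20) and -1.26 (SE 0.75), which were not called. With RNP-IP 2 labelled uninduced left out, 1418349_at was called lower in the remaining uninduced array than in total RNA (log2 difference -1.90), and higher in the arrays labelled induced than in that array.

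The arrays that were low for Hbegf on 1418350_at were also low for the array's own Gapdh control at the 5' end. That control read 8.18 and 4.24 with the induced label, 3.65 and 7.81 with the uninduced label, and 6.93 for total RNA. Its 3' counterpart read 11.90 and 9.71, 9.70 and 12.11, and 12.32, a narrower span. RNP-IP 2 labelled induced and RNP-IP 1 labelled uninduced were thus the low arrays for both ends of Gapdh and for 1418350_at of Hbegf. Without these 2 arrays, a check chosen after seeing the data, the log2 differences of Hbegf from the remaining controls were -0.71 and 0.44, of Erbb3 1434606_at 3.14 and of Egfr 1435888_at -2.05. The part of RNA quality in the Hbegf signals was not tested.

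**Figure D2:**
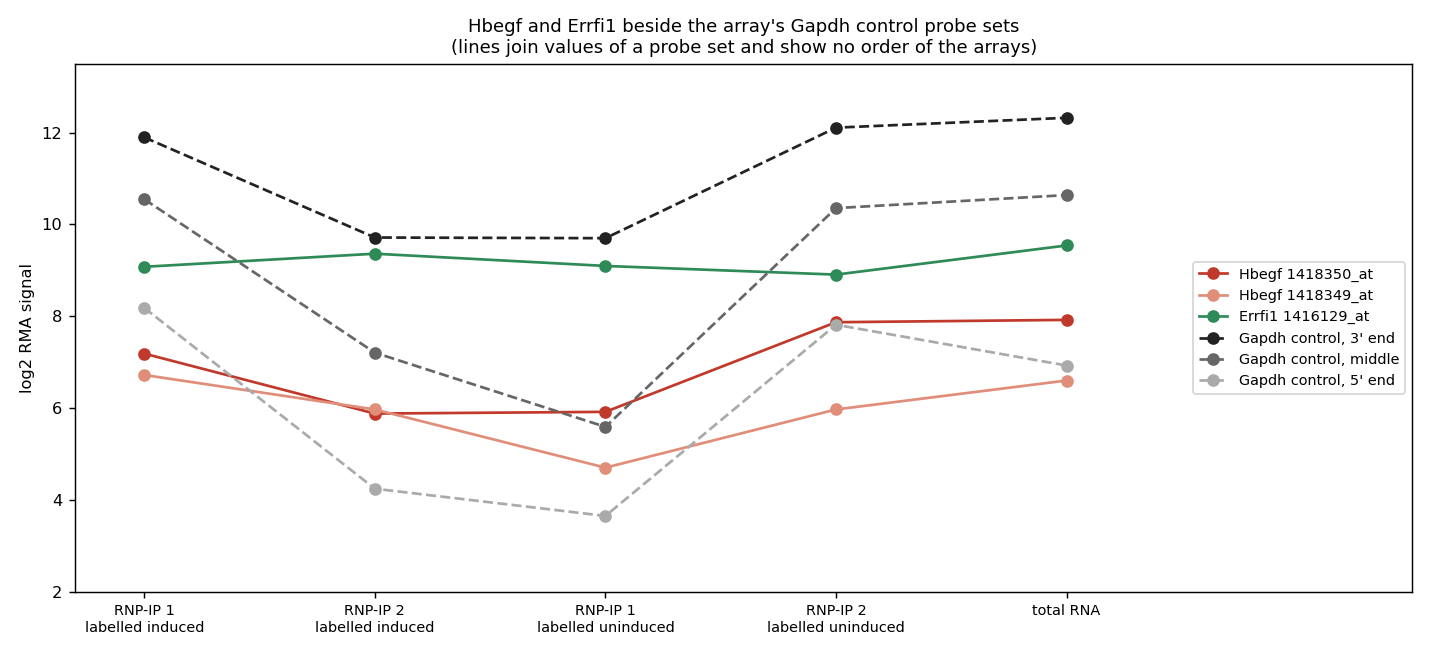
Signals on the log2 RMA scale (vertical axis) of both Hbegf probe sets, Errfi1 1416129_at and the array's Gapdh control at its 3' end, middle and 5' end in the 5 arrays (horizontal axis), where lines only join the values of a probe set. RNP-IP 2 labelled induced and RNP-IP 1 labelled uninduced are low for Gapdh, 4.24 and 3.65 at the 5' end, and for Hbegf 1418350_at, 5.88 and 5.92, while Errfi1 stays between 8.91 and 9.54.

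Nrg1, the neuregulin that binds Erbb3 and Erbb4, was near background on its probe set 1456524_at. The signals were 3.78 and 4.03 with the induced label, 4.84 and 4.61 with the uninduced label, and 4.94 for total RNA. Both arrays labelled induced were below the 3 controls, but all 5 were under log2 5. The log2 difference was -0.89 (SE 0.14, adjusted p = 0.170 from limma), which is less than 3-fold and was not called, and no fold is given for a gene near background on both sides.

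Errfi1, a cytoplasmic protein that binds the kinase domain of ErbB receptors and inhibits it, was well above background and even across the arrays. Its probe set 1416129_at read 9.08 and 9.36 with the induced label, 9.10 and 8.91 with the uninduced label, and 9.54 for total RNA. The groups overlapped, the 5 arrays spanned 0.635 on the log2 scale, and the difference from the 3 controls was 0.04 (SE 0.23, 95% confidence interval -0.61 to 0.69). Its other probe set, 1419816_s_at, had 5.49 and 5.31, 5.72 and 5.25, and 4.99 in the same order, with a log2 difference of 0.07 (95% confidence interval -0.62 to 0.77).

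Taken over the 17 probe sets, 1 was called higher in the arrays labelled induced than in the 3 controls (Erbb3) and 1 lower (Egfr). Of all 45101 probe sets 1.16% were called higher and 1.66% lower. Against the RNP-IPs labelled uninduced alone 1 of 17 was called higher, again Erbb3, and 0 lower, beside 1.23% and 1.91% of all probe sets. For the RNP-IPs labelled uninduced against total RNA 0 of 17 were called higher and 1 lower (Ereg), beside 0.891% and 0.933% of all probe sets. The 3 comparisons share arrays, so their values are not independent of each other, and since the genes were chosen with these contrasts known nothing is read from the counts.

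At an adjusted p under 0.05 limma called 0 probe sets in each comparison, with 4836, 5202 and 4896 at an unadjusted p under 0.05. The members' arrays did not overlap with the controls for 1 probe set on the higher side (Erbb3) and 2 on the lower side (Egfr and Nrg1). Over all probe sets 11% were without overlap on the higher side and 10.6% on the lower side, so such a share among 17 is not a result about the members. Of the 17 probe sets 11 were within 0.5 of the 3 controls on the log2 scale, and their median difference was 0.04, beside 0.005 over all probe sets. Signals of all 5 arrays were under log2 5 for 9 of the 17, and for 65.1% of all probe sets. A change of such a transcript may not be detectable at this signal.

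**Figure D3:**
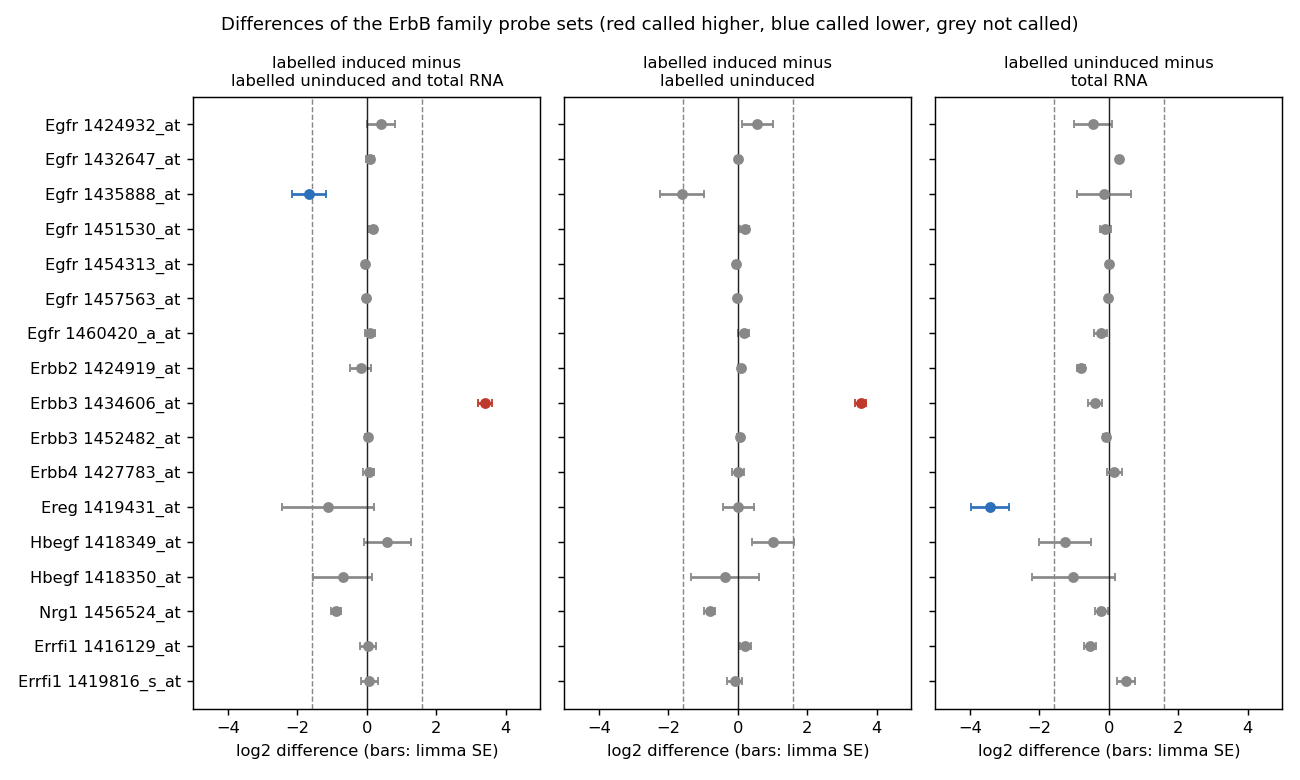
Log2 differences of the 17 probe sets (vertical axis) in the 3 comparisons (panels, horizontal axis), with bars for the limma SE and dashed lines at a 3-fold change. Erbb3 1434606_at is called higher in the first panels at 3.40 and 3.53, Egfr 1435888_at lower in the first at -1.66, and Ereg lower in the last at -3.43.

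The other genes of the pathway were read from 8 lists ordered by role, each gene by its probe set of highest mean signal among those annotated to it alone. Of 89 genes 79 were measured, and 1 of them was called higher and 7 lower in the arrays labelled induced than in the 3 controls. Over all 18194 genes 1.32% were called higher and 2.36% lower by the same rule. The median log2 difference of the 79 was -0.18, beside 0.002 over all genes. Of the 79 genes 65 reached log2 5 in an array, but only 9095 of all 18194 did. The shares and medians are therefore not like for like, and nothing is read from them about the pathway.

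None of the 7 other EGF-like ligands (Egf, Tgfa, Btc, Epgn, Nrg2, Nrg3 and Nrg4) reached log2 5 in any array, and none was called. Of 9 genes of ligand processing 1 was called, Bace1, a protease known to cut Nrg1. Bace1 had 5.35 and 6.30 with the induced label, 7.25 and 8.19 with the uninduced label and 8.77 for total RNA. It was 4.75-fold lower than the 3 controls (log2 difference -2.25, SE 0.59, adjusted p = 0.311 from limma). However, its 3 other probe sets had differences of 0.01 to 0.06. Adam17, the main sheddase of several ErbB ligands, had a log2 difference of -1.12 and was not called.

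Of the 15 measured adaptors and docking proteins Grb2 was called higher and Gab2 lower. Grb2 links the receptors to RAS activation, and had 8.46 and 8.03 with the induced label, 5.52 and 6.90 with the uninduced label and 6.36 for total RNA. The arrays labelled induced were above all controls, by 3.96-fold (log2 1.98, SE 0.47, adjusted p = 0.278 from limma), while its other probe set had a log2 difference of 0.24. Gab2, a docking protein upstream of PI3K, had 5.33 and 5.80, 7.53 and 8.06, and 8.03 in the same order. This was 4.94-fold lower (SE 0.25 on the log2 scale, adjusted p = 0.113 from limma), with 0.14 and 0.16 for its 2 other probe sets.

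Of 16 genes of receptor turnover and inhibition Eps15 and Socs4 were called lower on the probe set of highest mean signal. Eps15, an endocytic adaptor phosphorylated by the EGF receptor, had 8.70 and 9.09 with the induced label, 10.52 and 10.35 with the uninduced label and 10.68 for total RNA, 3.08-fold lower (adjusted p = 0.110 from limma). It was not called when total RNA was left out of the controls in the fit with 3 groups, and its 3 other probe sets had log2 differences of -0.35 to 0.14. Socs4, a SOCS protein linked to EGF receptor degradation, had 6.75 and 7.49, 9.13 and 8.69, and 8.36 in the same order, 3.05-fold lower. Another probe set of Socs4, 1421273_at, was called in the opposite direction, with a log2 difference of 1.61, and the 2 others stood at 0.62 and 1.87 without a call, so the direction of Socs4 depends on the probe set. Ptprk, Socs5 and Sh3kbp1, named here after their values were seen, were called against the 3 controls only on a probe set of lower mean signal. Ptprk was higher at 2.59 on 1444763_at, against -1.49 on its probe set of highest mean signal. Socs5 was lower at -2.87 on 1423350_at, against 0.64 there. Sh3kbp1 was lower at -3.11 on 1456261_at, against 0.55 there. Against the RNP-IPs labelled uninduced alone Ptprk was also called lower on its probe set of highest mean signal, at -1.87.

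Of the 8 measured genes of the RAS to ERK cascade Nras was called lower, and of the 9 measured ERK feedback genes Spred1 and Dusp6. Nras, a RAS GTPase, had 7.27 and 7.66 with the induced label, 8.94 and 9.48 with the uninduced label and 9.47 for total RNA, 3.56-fold lower, and 1 of its 2 other probe sets was called the same way at -1.76 and the remaining one stood at 0.65 without a call. Spred1, an inhibitor of the cascade, had 6.78 and 8.03, 9.87 and 9.22, and 10.08 in the same order, 4.98-fold lower, and 1 of its 7 other probe sets was called the same way at -2.49. The phosphatase gene Dusp6 had 4.54 and 4.92, 5.65 and 6.75, and 6.60 in that order, at least 2.52-fold lower when the arrays labelled induced are set at log2 5.

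On the probe set of highest mean signal, none of 12 measured PI3K to AKT genes was called against the 3 controls. Nor was any of the 3 measured STAT factors. Stat3, a transcription factor activated downstream of cytokine and growth factor receptors, was called higher on another of its 4 probe sets, 1426587_a_at, with a log2 difference of 1.94 (adjusted p = 0.118 from limma), and is named here after its values were seen. In the RNP-IPs labelled uninduced against total RNA 3 genes of the lists were called, named here after their values were seen, with Araf and Ranbp6 higher by log2 differences of 2.90 and 1.73 and Spred2 lower at -1.80. Over all genes 1.26% were called higher and 1.36% lower there. For Spred2 the 4 RNP-IPs lay between 6.34 and 6.60 and total RNA at 8.29, so that total RNA alone stood above the rest, as for Ereg. Against the RNP-IPs labelled uninduced alone, Araf and Rictor were called lower with the induced label, at -2.23 and -1.69. Both are named after their values were seen.

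**Figure D4:**
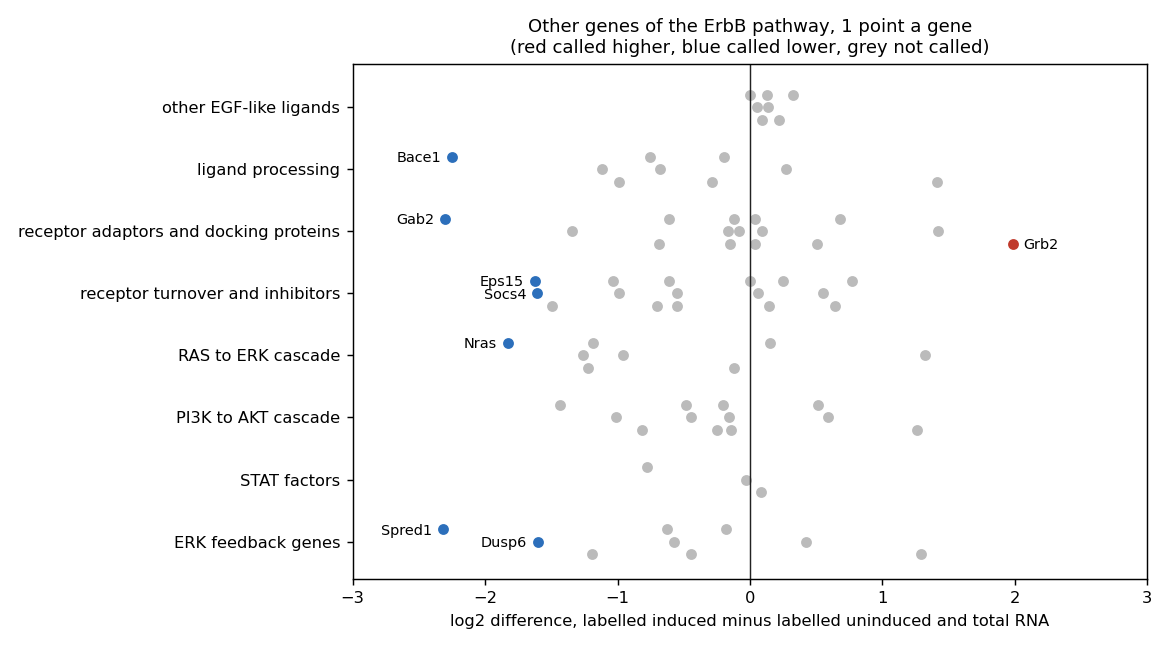
Log2 difference between the RNP-IPs labelled induced and the 3 controls (horizontal axis) for the 79 measured genes of the 8 pathway lists (vertical axis), with 1 point a gene and no error drawn. Grb2 is the 1 gene called higher, and Bace1, Gab2, Eps15, Socs4, Nras, Spred1 and Dusp6 are the 7 called lower.

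The genes whose pattern over the 5 arrays was most like that of the called ErbB probe sets were found by the Euclidean distance between log2 signals centred on each gene's mean, over 18193 other genes. For Erbb3 1434606_at these were Lhx9 (distance 0.343), Gatad1 (0.397) and 4930486L24Rik (0.558). Gatad1 had 10.86 and 10.88 with the induced label, 6.82 and 7.45 with the uninduced label and 7.81 for total RNA, so its controls were well above log2 5, in contrast to those of Erbb3. For Egfr 1435888_at the nearest were Polr2i (0.0668), Kif16b (0.240) and Sbk1 (0.267), and Polr2i read 7.05 and 8.17, 9.72 and 8.80, and 9.40.

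For Ereg, added after its values were seen, they were Gsta2 (0.745), Tmem176a (0.752) and Tmem176b (0.796). Tmem176b read 5.91 and 5.91 with the induced label, 5.91 and 5.72 with the uninduced label, and 9.84 for total RNA, again with the total RNA array alone on top. These distances describe 5 arrays, and likeness of this kind is a description of the signals.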

How the data were processed

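Each of the 4 RNP-IPs and the total RNA was amplified by two-cycle labelling and put on 1 GeneChip Mouse 430 2.0 array. The authors normalized the scans by RMA, whose version is not stated, and deposited log2 signals. The table holds 45101 probe sets, 64 of them array controls, and all 5 of its columns were used as they are, without detection calls. Precision is limited by the number of arrays.

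Members and gene lists were chosen with earlier results of these data known. As in the paper, the RNP-IPs labelled induced were compared with a group of 3 that joins those labelled uninduced and total RNA. This was done with limma 3.58.1 (R 4.3.3) over all probe sets by lmFit and eBayes, with 3 residual and 0.962 prior degrees of freedom and Benjamini-Hochberg adjustment. A fit with 3 groups gave the other comparisons, where the spread of total RNA is taken from the RNP-IPs, as is that of a lone RNP-IP when the other of its group is left out. The fits were tested on simulated data. An annotation of 2016 assigned 34958 probe sets to 1 gene, 932 to several and 9211 to none, and no symbol needed updating by the RefSeq table of GRCm38.p6.

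Named were all members, Hnrnpd, up to 2 called genes a list with the largest difference, and for a called member the 3 genes most alike. Alternatives were another scaling, a filter at log2 5, an intensity trend, other thresholds, other controls, another probe set a gene, left-out arrays and a replicate block.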

Additional observations from a re-analysis of the deposited data

How the results depend on the processing

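Erbb3 1434606_at was called against the 3 controls under all 12 alternatives, with log2 differences of 3.14 to 3.53, and Ereg against total RNA under all 8, with -3.93 to -2.93, apart from the stricter threshold, where an adjusted p under 0.05 left 0 members and 0 pathway genes called in any comparison. The 2 members called against the 3 controls became 1, with Egfr lost, with the replicate block and with controls without total RNA, and 1 to 2 when 1 RNP-IP was left out. Against the RNP-IPs labelled uninduced alone, 1 member called became 2 after median centring, after cyclic loess and with the filter at log2 5, and 1 to 2 with 1 RNP-IP left out. Between the RNP-IPs labelled uninduced and total RNA, 1 became 1 to 2. The 8 pathway genes called became 5 with cyclic loess (without Eps15, Socs4 and Dusp6), 5 with the replicate block, 15 at a fold of at least 2 and 4 to 13 with 1 RNP-IP left out, the lowest without RNP-IP 1 and the highest without RNP-IP 2 labelled induced. With controls without total RNA 9 pathway genes were called, with Ptprk, Araf and Rictor gained and Eps15 and Dusp6 lost. The cause of these shifts was not tested. The replicate block was fitted on the 4 RNP-IPs alone. Over all probe sets it gave 286 calls higher and 368 lower, beside 554 and 861 on these arrays without it. Deviations of same-numbered RNP-IPs from their group means correlated at -0.50 over 45101 probe sets. With 2 arrays a group this cannot show whether same-numbered RNP-IPs were prepared together. A crossed pairing, added after seeing the data, gave 647 higher and 968 lower on the same arrays. With each gene read by its probe set of largest fold 11 pathway genes were called, with Socs5, Sh3kbp1, Ptprk and Stat3 gained and Socs4 lost, which read 1.87 there in place of -1.61. Among the members no called value changed sign. Gab2 and Nras stayed called in every alternative other than the stricter threshold, and Grb2 was lost with the replicate block and without RNP-IP 1 labelled induced. The adjusted p of Erbb3 from limma was 0.0473 after median centring, 0.0472 after cyclic loess and 0.0312 with the filter. For the 9 of 17 member probe sets near background a change may not be detectable.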
